A study of Sus scrofa with 17 samples.

Results

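The genes described here are 10 genes of insulin signalling and glucose uptake in skeletal muscle, namely *INSR*, *IRS1*, *IRS2*, *AKT2*, *TBC1D4*, *SLC2A4*, *HK2*, *TXNIP*, *ARRDC4* and *PRKAA2*. They were chosen by their symbols, and each was found as 1 of the 31908 Ensembl genes with counts. RNA-seq was done on the longissimus muscle of 17 weaned piglets. All of them were male Large White × Duroc crosses aged 28 days at the start, which were housed individually and pair-fed and were slaughtered after an adaptation of 5 days and a trial of 2 weeks. The 6 control piglets ate a diet of wheat, maize and soybean meal. In the UL diet, eaten by 6 piglets, 7% of the feed was *Ulva lactuca*, a green seaweed, and the ULU diet, eaten by 5, was UL with 0.01% ulvan lyase, an enzyme that cuts ulvan, a cell wall polysaccharide of that seaweed. Every library came from whole muscle of 1 piglet, and the time between the last meal and sampling was not given in the sources used here.

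In muscle, insulin binds its receptor at the cell surface, and the receptor phosphorylates the adaptor proteins IRS1 and IRS2, which recruit PI3K. PI3K makes a membrane lipid that activates the kinase AKT2, and AKT2 phosphorylates TBC1D4 (also called AS160), which otherwise holds vesicles carrying the glucose transporter GLUT4 inside the cell. GLUT4, the product of *SLC2A4*, then moves to the surface, and hexokinase 2 traps the glucose that enters as glucose 6-phosphate. TXNIP and ARRDC4 are alpha-arrestins that lower glucose uptake and whose genes are induced by glucose through the Mondo transcription factors, and AMPK, with its catalytic subunit encoded by *PRKAA2*, promotes glucose uptake in the contracting muscle without insulin. Much of this control acts on phosphorylation and on the place of the proteins in the cell, which RNA-seq does not measure.

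The libraries held 16137365 to 26546810 counts. All 10 genes passed the filter on low counts, and in every library each lay above the 0.130 to 0.195 CPM that 3 counts were worth. CPM here is the usual depth-scaled count, with library totals corrected by TMM factors. The lowest count of any of them was 26 reads, for *IRS2*, and the highest 23462 reads, for *TXNIP*. ULU replicate 43 stood apart in its scaling, with a TMM factor of 0.765 against 0.925 to 1.21 in the other libraries, and it had the highest CPM of all 17 for 4 of the 10 genes, *IRS1*, *AKT2*, *HK2* and *PRKAA2*. The muscle markers *ACTA1* and *CKM* were at 49396 CPM or more and 13259 CPM or more in every library.

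Levels of different genes were compared per kilobase of exon, in the control piglets. *TXNIP* had the highest level, at 196 ± 69.3 CPM per kb (SD, n = 6), followed by *PRKAA2* at 121 ± 9.89, *SLC2A4* at 31.7 ± 8.54 and *AKT2* at 10.1 ± 1.63 CPM per kb. Below them came *TBC1D4* at 6.15 ± 0.391, *IRS1* at 5.05 ± 1.02, *ARRDC4* at 4.63 ± 1.35, *INSR* at 2.89 ± 0.819, *HK2* at 2.86 ± 0.745 and *IRS2* at 0.634 ± 0.219 CPM per kb. The control ranges of neighbours in this order were apart between *PRKAA2* and *SLC2A4*, *SLC2A4* and *AKT2*, *AKT2* and *TBC1D4*, and *HK2* and *IRS2*, and overlapped for the other neighbours. Thus the transporter was above the kinase that mobilizes it, and of the insulin receptor substrates *IRS1* was above *IRS2* in each control piglet.

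In ULU vs control, 2 of the 10 genes passed the test, *AKT2* and *TBC1D4*, and both were higher. The background was 2.98% of the 14203 genes tested (423 genes, of which 282 were higher, 1.99%, and 141 lower, 0.993%). No member passed in UL vs control, where 0 genes (0.0%) were called by edgeR although 1541 had an unadjusted p under 0.05 and DESeq2 called 148 (1.48% of those with an adjusted p-value) on the libraries of these diets. None passed in ULU vs UL either, where 5 genes (0.0352%) were called. A gene was called at a Benjamini-Hochberg adjusted p-value under 0.05 over all genes tested. In ULU vs control the 10 genes had a median log2(fold change) of 0.17, against −0.03 over all genes tested, and in UL vs control it was 0.04, against −0.003.

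**Figure D1:**
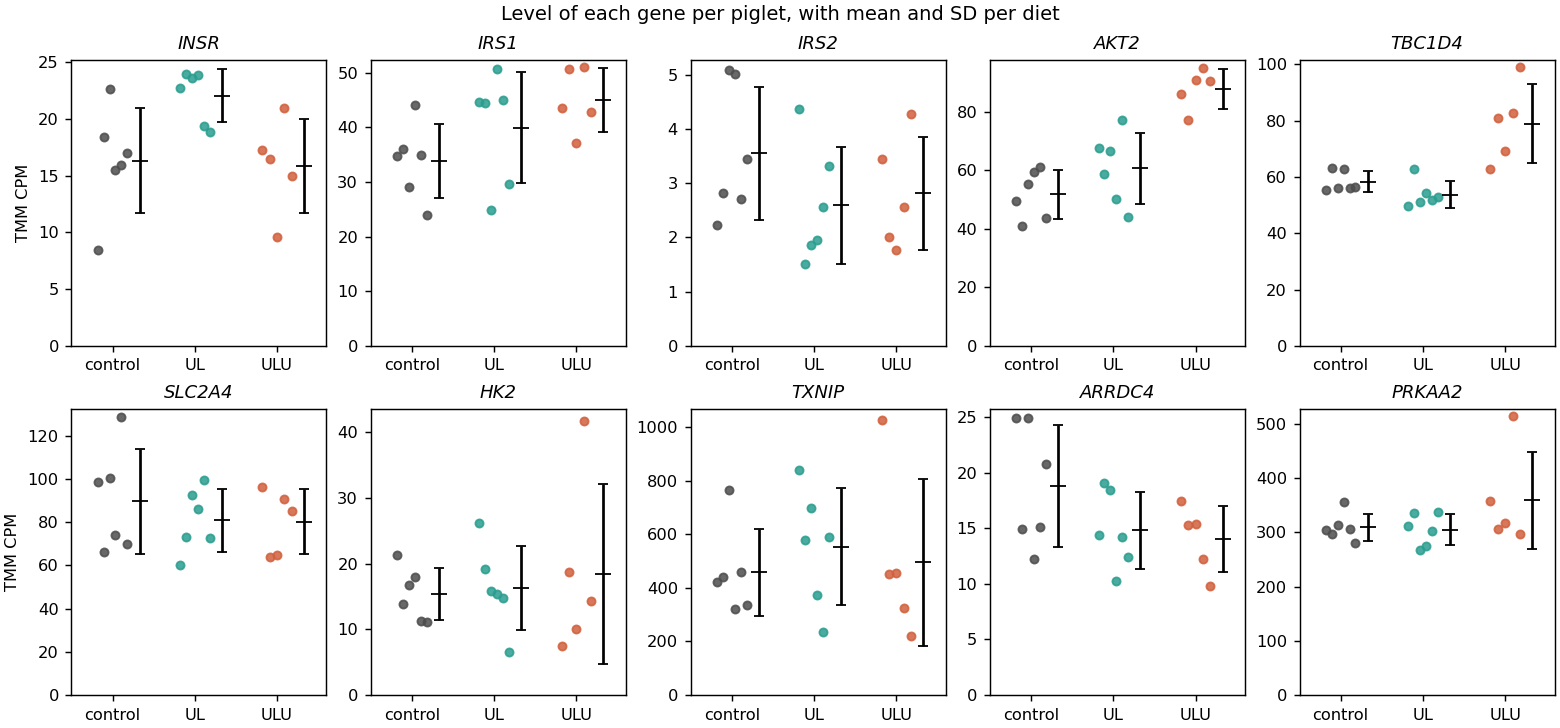
TMM-scaled CPM (vertical axes, from 0) of each of the 10 genes in every piglet on the control, UL and ULU diets (1 point per piglet), with the mean and SD of each diet as a black bar. The 5 ULU piglets sit between 77.0 and 94.9 CPM for *AKT2*, above all control piglets, while the diets overlap for the other genes.

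*AKT2* (ENSSSCG00000002989, chromosome 6, 48555789-48587919, minus strand, Sscrofa11.1) encodes the AKT isoform that carries the insulin signal to glucose uptake. In the control piglets its lowest, median and highest levels were 40.9, 52.4 and 61.2 CPM, and on UL they were 44.0, 62.6 and 77.0 CPM. The ULU piglets had 86.0, 77.0, 90.6, 94.9 and 90.3 CPM (replicates 40 to 44). Every ULU piglet was thus above every control piglet, whereas the lowest ULU piglet and the highest UL piglet were level and the ranges of these diets overlapped. The means were 51.7 ± 8.35 (SD, n = 6), 60.6 ± 12.2 (n = 6) and 87.8 ± 6.79 CPM (n = 5) on control, UL and ULU. The difference between ULU and control was 1.70-fold, with a log2(fold change) of 0.76 (SE 0.14, edgeR adjusted p = 0.00898). Ranges did not overlap in this comparison for 3.39% of all genes tested. Against UL, ULU had a log2(fold change) of 0.53 (SE 0.14), which missed the threshold in edgeR (adjusted p = 0.180) and passed it in DESeq2 (adjusted p = 0.0106 on all libraries and 0.0143 on the libraries of both diets). UL vs control gave 0.23 (95% interval −0.05 to 0.51, edgeR adjusted p = 0.555).

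*TBC1D4* (ENSSSCG00000009464, chromosome 11, 47543814-47818561, minus strand) encodes the Rab GTPase-activating protein that AKT2 switches off. The levels in control piglets were 55.2, 56.4 and 63.3 CPM (lowest, median and highest), and those on UL 49.5, 52.4 and 62.8 CPM. On ULU the piglets had 62.7, 81.0, 69.3, 82.7 and 99.0 CPM. The lowest ULU piglet was within the control range and the other ULU piglets were above it. The means were 58.4 ± 3.71, 53.7 ± 4.75 and 79.0 ± 13.9 CPM on control, UL and ULU. For ULU vs control this gave a log2(fold change) of 0.44 (SE 0.11, edgeR adjusted p = 0.0369). In ULU vs UL it was 0.56 (SE 0.11), past the threshold in DESeq2 (adjusted p = 0.00220 on the libraries of these diets) but not in edgeR (adjusted p = 0.0683). UL vs control gave −0.12 (95% interval −0.33 to 0.10). The span of *TBC1D4* overlaps 2 unnamed genes, 1 of them on the other strand. Counting did not use strand, and exon overlap was not checked, so whether their reads entered the counts was not tested.

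These 2 calls did not rest equally on single piglets. *AKT2* passed in ULU vs control with each of the 11 libraries left out in turn, with edgeR adjusted p-values from 0.00572 to 0.0260, the latter without ULU replicate 43 (log2(fold change) 0.73). *TBC1D4* passed in 3 of these 11 fits and was lost without control replicate 21, 22, 23, 24 or 26 or without ULU replicate 41, 43 or 44, with adjusted p-values up to 0.0835 and log2(fold changes) from 0.34 to 0.51 over the 11 fits. It was also lost when edgeR was fitted to the control and ULU libraries alone (adjusted p = 0.0843).

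Measures of the composition of the muscle RNA were set beside these calls, and none of 27 tests of them passed the adjustment. So few piglets limit the exact permutation test, whose smallest possible p is too large for 1 measure alone to pass over 27 tests. Not passing therefore does not show that the composition was alike. The share of counts from the mitochondrial chromosome was 14.05% to 15.9% in control, 8.64% to 14.8% in UL and 8.002% to 11.6% in ULU, with no overlap between ULU and control (two-sided exact permutation test, p = 0.00433, adjusted p = 0.117 over the 27 tests). The sum of 6 slow fibre markers, of 8 listed, was 3232 to 7282 CPM in control, 5295 to 10222 CPM in UL and 5571 to 12478 CPM in ULU (ULU vs control, exact permutation test, p = 0.0390, adjusted p = 0.150). *TNNT1* and *TNNI1*, troponins of slow fibres, and *TNNT3*, the troponin T of fast fibres, were called higher in ULU vs control, as was 1 of the 5 general muscle fibre markers measured of 6, *MYOD1*. The sum of these 5 was 96264 to 155666 CPM in control, 118463 to 159418 CPM in UL and 134453 to 256195 CPM in ULU (ULU vs control, exact permutation test, p = 0.0303, adjusted p = 0.146). The 5 fast fibre markers of 8 summed to 14644 to 33047 CPM in control and 27669 to 37415 CPM in ULU (exact permutation test, p = 0.0303, adjusted p = 0.146), and the 6 adipocyte markers to 204 to 988 CPM in control and 160.2 to 354 CPM in ULU (p = 0.0909, adjusted p = 0.286 by the same test), with leptin at 0 in some libraries. All marker sums overlapped between the diets in each comparison, those of endothelial, leukocyte, fibroblast and red blood cell markers included, and no adipocyte, endothelial, leukocyte, fibroblast or red blood cell gene was called. In whole muscle, fewer cells of a type and less RNA per cell cannot be told apart. With the mitochondrial share as a covariate, *AKT2* had a log2(fold change) of 0.58 (edgeR adjusted p = 0.364) and *TBC1D4* 0.67 (adjusted p = 0.171) in ULU vs control. With the slow fibre sum as a covariate, the values were 0.74 (adjusted p = 0.101) for *AKT2* and 0.50 (adjusted p = 0.153) for *TBC1D4*. These fits called 8 and 11 genes in all, and the log2(fold changes) were lower than without a covariate for *AKT2* and higher for *TBC1D4*. Removing the mitochondrial chromosome from the counts kept both calls, at adjusted p = 0.00936 for *AKT2* and 0.0342 for *TBC1D4*. Since the mitochondrial share did not overlap between ULU and control, this share and the diet cannot be told apart.

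**Figure D2:**
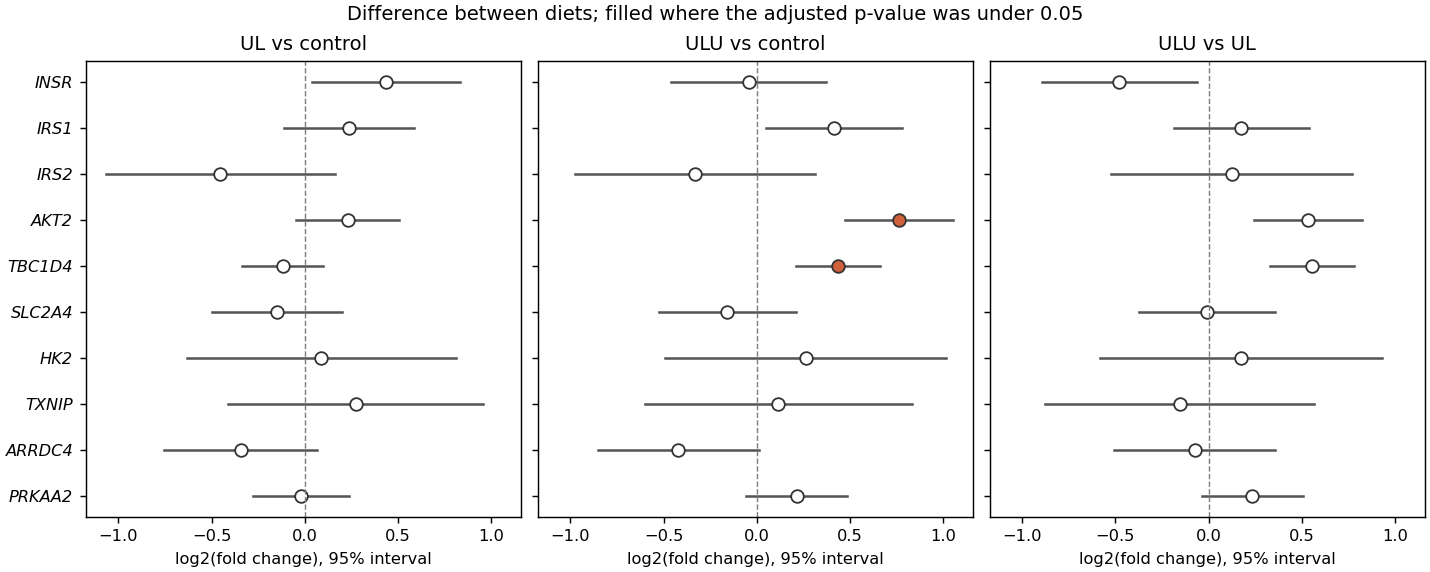
Log2(fold change) of the 10 genes (horizontal axes) in the 3 comparisons of diets, from edgeR fitted to all 17 libraries. Points are estimates, lines 95% intervals, and filled points have an adjusted p-value under 0.05. Only *AKT2* and *TBC1D4* in ULU vs control are filled, and their intervals in ULU vs UL also lie above 0.

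The insulin receptor gene, *INSR* (ENSSSCG00000013566, chromosome 2, 71797204-71936139, plus strand), had its highest mean on UL. Control piglets had 8.47, 16.5 and 22.6 CPM (lowest, median and highest) and UL piglets 18.8, 23.2 and 23.9 CPM. The ULU piglets had 17.3, 16.5, 9.62, 20.9 and 14.9 CPM. All 6 UL piglets were above the control median, all 5 ULU piglets were below the UL median, and the ranges overlapped in each comparison. The log2(fold change) was 0.44 in UL vs control (SE 0.19, unadjusted p = 0.0324, edgeR adjusted p = 0.421) and −0.48 in ULU vs UL (SE 0.20, unadjusted p = 0.0264, adjusted p = 0.404). Neither passed, in comparisons where 10.8% of all genes tested had an unadjusted p under 0.05. In ULU vs control it was −0.04 (95% interval −0.46 to 0.37).

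*IRS1* (ENSSSCG00000025729, chromosome 15, 128245846-128308335, minus strand) encodes the main adaptor of the insulin receptor in muscle. Its lowest, median and highest levels were 23.9, 34.8 and 44.0 CPM in control and 24.9, 44.6 and 50.6 CPM on UL. On ULU the levels were 43.6, 50.6, 37.1, 51.0 and 42.9 CPM, all above the control median and overlapping the control range. Against control, ULU had a log2(fold change) of 0.41 (SE 0.17, unadjusted p = 0.0278, edgeR adjusted p = 0.201), which did not pass. The unadjusted p was under 0.05 for 18.9% of all genes tested in this comparison.

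*IRS2* (ENSSSCG00000034763, chromosome 11, 76626179-76653881, minus strand), the second adaptor, was the lowest of the 10 genes, with 26 to 92 reads per library. It had 3.55 ± 1.23, 2.59 ± 1.08 and 2.82 ± 1.04 CPM on control, UL and ULU, with 3.45, 2.01, 1.78, 2.56 and 4.28 CPM in the ULU piglets. The ranges overlapped in each comparison. Its log2(fold change) was −0.45 in UL vs control (95% interval −1.07 to 0.16) and −0.33 in ULU vs control (−0.97 to 0.31), so that a 2-fold decrease on UL was within the interval.

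*SLC2A4* (ENSSSCG00000023915, chromosome 12, 52628450-52634967, plus strand), the gene of GLUT4, had nearly equal means on the seaweed diets. The control piglets had 66.5, 86.3 and 129 CPM (lowest, median and highest) and the UL piglets 60.2, 79.8 and 99.8 CPM. The ULU piglets had 96.6, 64.1, 64.9, 90.7 and 85.4 CPM. The means were 89.7 ± 24.2, 80.8 ± 14.7 and 80.3 ± 14.98 CPM. In ULU vs control the log2(fold change) was −0.16 (95% interval −0.53 to 0.21), in UL vs control −0.15 (−0.50 to 0.20) and in ULU vs UL −0.01 (−0.38 to 0.36). Differences of any size within these intervals remained compatible with the data of this number of piglets.

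*HK2* (ENSSSCG00000008261, chromosome 3, 68145890-68231615, minus strand) encodes the muscle hexokinase. Levels were 11.13, 15.3 and 21.3 CPM in control and 6.50, 15.6 and 26.2 CPM on UL (lowest, median and highest). On ULU they were 7.43, 18.8, 10.1, 41.7 and 14.2 CPM. A single piglet, ULU replicate 43, held the highest value of all 17. Compared with control, *HK2* on ULU had a log2(fold change) of 0.26 (95% interval −0.49 to 1.02, edgeR adjusted p = 0.734), and without this piglet it was −0.29 (adjusted p = 0.688).

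The alpha-arrestin gene *TXNIP* (ENSSSCG00000031262, chromosome 4, 99348575-99352241, plus strand) had 321, 432 and 767 CPM in control and 235, 583 and 840 CPM on UL (lowest, median and highest). On ULU it had 1025, 450.1, 457, 326 and 221 CPM, so the ULU piglets spanned both the highest and the lowest of the 17 levels. Its log2(fold change) was 0.27 in UL vs control (95% interval −0.41 to 0.96), 0.12 in ULU vs control (−0.60 to 0.83) and −0.16 in ULU vs UL (−0.88 to 0.56). Without ULU replicate 40 the value in ULU vs control was −0.33 (edgeR adjusted p = 0.639). Changes of any size within these wide intervals remained compatible with the data of so few piglets.

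*ARRDC4* (ENSSSCG00000002252, chromosome 7, 81656763-81669494, minus strand) had 12.2, 17.96 and 25.0 CPM in control and 10.2, 14.3 and 19.1 CPM on UL (lowest, median and highest). The ULU piglets had 17.5, 15.3, 15.4, 12.3 and 9.82 CPM, all of them below the control median and overlapping the control range. The log2(fold change) was −0.42 in ULU vs control (SE 0.21, 95% interval −0.85 to 0.01, edgeR adjusted p = 0.279) and −0.34 in UL vs control (SE 0.20, adjusted p = 0.554). Neither passed.

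*PRKAA2* (ENSSSCG00000036145, chromosome 6, 155681781-155754272, minus strand) encodes the AMPK alpha 2 subunit, the main catalytic subunit of skeletal muscle. Levels were 281, 305 and 356 CPM in control and 268, 307 and 337 CPM on UL (lowest, median and highest). On ULU they were 358, 307, 318, 515 and 296 CPM, with the value of 515 CPM again in ULU replicate 43. The log2(fold change) was 0.21 in ULU vs control (SE 0.13, edgeR adjusted p = 0.393) and −0.02 in UL vs control (95% interval −0.28 to 0.24). The span of *PRKAA2* overlaps 2 genes on the plus strand. Exon overlap was not checked here either, and whether their reads entered the unstranded counts was not tested.

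The other genes of the pathway were taken from lists by role that hold 101 genes, the 10 included, of which 95 were tested. These lists were chosen with earlier results of these data known, so a share above the background is a description and not a test. In ULU vs control, 6 of the 95 passed, 3 higher and 3 lower (6.32%, against 2.98% of all genes tested), and 0 of the 95 passed in either other comparison, where 11 (UL vs control) and 18 (ULU vs UL) had an unadjusted p under 0.05, as had 10.8% of all genes tested in each. DESeq2 on the libraries of each pair of diets left part of the list without an adjusted p-value. It called 13 of 87 in ULU vs control (7 higher and 6 lower) and 2 of 84 in UL vs control (*ARRDC3* and *PRKAA1*, both lower). In ULU vs UL it called 4 of 57 (*AKT2*, *TBC1D4*, *RAB10* and *PRKAB2*, all higher). Of all genes with an adjusted p-value, it called 7.31%, 1.48% and 3.84% in the same order. On all 17 libraries it called 16 of 89, 2 of 81 and 7 of 30 in the same order, against 9.08%, 1.65% and 8.92% of all genes with an adjusted p-value. All 6 genes called by edgeR were among the 13. Besides *AKT2* and *TBC1D4*, the genes called by edgeR were *GYS1*, *FOXO1*, *RICTOR* and *PDK4*. In that comparison the 95 genes had a median log2(fold change) of 0.05, against −0.03 over all genes tested.

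*GYS1*, the muscle glycogen synthase that insulin activates through AKT and GSK3, had 318, 389 and 406 CPM in control (lowest, median and highest) and 378, 415 and 491 CPM on UL. On ULU it had 517, 463, 476, 605 and 522 CPM, with every ULU piglet above every control piglet (ranges did not overlap for 3.39% of all genes tested). ULU differed from control by a log2(fold change) of 0.45 (SE 0.10, edgeR adjusted p = 0.0241). The call was lost without control replicate 22 or 23 or ULU replicate 40 or 43, with adjusted p-values of at most 0.0683.

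*PDK4*, the kinase that closes pyruvate dehydrogenase and spares glucose from oxidation in fasting, had 5.09, 12.1 and 38.8 CPM in control (lowest, median and highest) and 5.29, 6.68 and 10.8 CPM on UL. The ULU piglets had 4.89, 7.15, 3.42, 4.68 and 7.10 CPM, all below the control median and 3 of them below the lowest control piglet. The log2(fold change) was −1.67 in ULU vs control (SE 0.40, edgeR adjusted p = 0.0336) and −1.26 in UL vs control (SE 0.37, adjusted p = 0.213). Without control replicate 22, the piglet with 38.8 CPM, the value in ULU vs control was −1.26 (adjusted p = 0.0789), and the call was also lost without ULU replicate 40, 41, 42 or 43, with adjusted p-values of at most 0.0794.

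*FOXO1*, a transcription factor that AKT keeps out of the nucleus, had 9.88, 13.4 and 19.8 CPM in control (lowest, median and highest), 9.77, 10.6 and 12.8 CPM on UL, and 8.65, 9.29, 7.97, 8.87 and 10.8 CPM in the ULU piglets. *RICTOR*, the defining subunit of the complex mTORC2 that phosphorylates AKT, had 17.3, 36.8 and 45.6 CPM in control, 19.5, 25.0 and 30.3 CPM on UL, and 18.3, 22.7, 20.3, 22.1 and 19.8 CPM in the ULU piglets. All ULU piglets lay below the control median for both genes, and the ranges overlapped. In ULU vs control the log2(fold change) was −0.61 for *FOXO1* (SE 0.16, edgeR adjusted p = 0.0414) and −0.77 for *RICTOR* (SE 0.18, adjusted p = 0.0299). *FOXO1* stayed called in 4 and *RICTOR* in 3 of the 11 fits without 1 library. The call of *FOXO1* was lost without control replicate 21, 22 or 23 or ULU replicate 40, 41, 42 or 43 (adjusted p of at most 0.0901), and that of *RICTOR* without control replicate 22, 23, 24 or 26 or ULU replicate 40, 41, 43 or 44 (at most 0.0739). With the mitochondrial share as a covariate *GYS1*, *PDK4*, *FOXO1* and *RICTOR* were not called (adjusted p = 0.259, 0.625, 0.479 and 0.527), with log2(fold changes) of 0.52, −0.99, −0.54 and −0.55. Nor were they with the slow fibre sum (adjusted p = 0.128, 0.133, 0.0523 and 0.185), where the log2(fold changes) were 0.49, −1.85, −0.85 and −0.77.

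**Figure D3:**
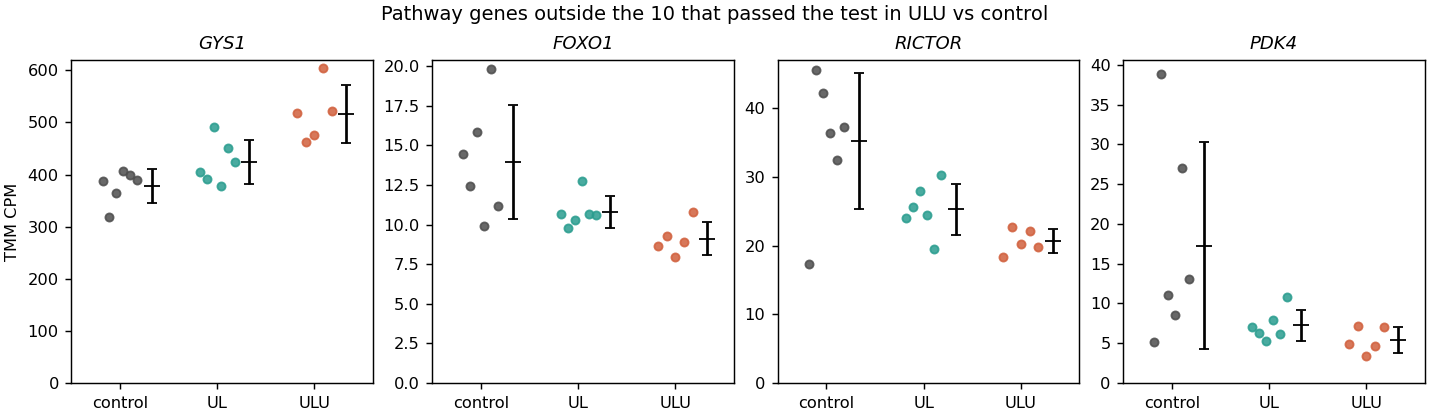
TMM-scaled CPM (vertical axes, from 0) of *GYS1*, *FOXO1*, *RICTOR* and *PDK4* in every piglet on the control, UL and ULU diets (1 point per piglet), with the mean and SD of each diet as a black bar. For *GYS1* the ULU piglets, from 463 to 605 CPM, sit above the control range, while for the other genes the ULU piglets sit low within or below a wider control range.

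The lists by role are read against the shares of all genes in ULU vs control. In edgeR 2.98% passed and 18.9% had an unadjusted p under 0.05. DESeq2 on the libraries of these diets called 7.31% of the genes with an adjusted p-value. By role, 0 of the 10 receptors and adaptors tested passed in ULU vs control in edgeR, 1 had an unadjusted p under 0.05, DESeq2 called 0, and their median log2(fold change) was −0.02. *PTPN1*, the phosphatase that switches off the insulin receptor, was at 0.16 (SE 0.14). Of the 13 PI3K and AKT genes, *AKT2* passed. *PIK3R2*, a regulatory subunit of PI3K, was at −0.35 (SE 0.18). Among the 16 genes of the list of AKT targets and mTOR complex genes, 4 passed. *TBC1D4* and *GYS1* were higher and *FOXO1* and *RICTOR* lower, and none of the 4 passed with either covariate. *RICTOR* acts on AKT and is not its target. Without 1 library, *TBC1D4* and *RICTOR* each stayed called in 3, *FOXO1* in 4 and *GYS1* in 7 of 11 fits.

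Of the 18 genes of glucose transporters and vesicle traffic 0 passed in edgeR, where 4 had an unadjusted p under 0.05 in ULU vs control (18.9% of all genes tested had), and DESeq2 on the libraries of these diets called 1, *RAB10*. *RAB10*, a Rab protein that is a target of TBC1D4, had 442, 456, 456, 529 and 435 CPM in the ULU piglets. These were above the 285 to 411 CPM of the control piglets and the 320.2 to 417 CPM of the UL piglets. Of all genes tested, 3.39% had ranges that did not overlap in ULU vs control and 1.75% in ULU vs UL. Its difference from control on ULU, a log2(fold change) of 0.39 (SE 0.11), did not pass (edgeR adjusted p = 0.0609). *STX4*, the surface syntaxin with which GLUT4 vesicles fuse, was at 0.48 (SE 0.15, adjusted p = 0.0835). In the list of glucose trapping and storage, with 10 genes tested, *GYS1* and *PDK4* passed, in opposite directions.

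The 10 genes of Mondo glucose sensing and alpha-arrestins included 0 that passed in edgeR. Of these, 4 had an unadjusted p under 0.05 in ULU vs control, and DESeq2 on the libraries of these diets called *ARRDC2* and *ARRDC3*, both lower. *ARRDC3* had 61.4 to 138 CPM in control, 45.3 to 93.1 CPM on UL and 30.4 to 75.1 CPM on ULU, with a log2(fold change) of −0.80 in ULU vs control (SE 0.23, edgeR adjusted p = 0.0665) and −0.69 in UL vs control (SE 0.22, adjusted p = 0.257). *ARRDC2* was at −1.37 in ULU vs control (SE 0.45, adjusted p = 0.0976), with its highest level, 22.9 CPM, in control replicate 25.

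Of the 11 AMPK genes 0 passed in edgeR, 4 had an unadjusted p under 0.05 in ULU vs control, and DESeq2 on the libraries of these diets called *PRKAB2* higher and *PRKAA1* lower. *PRKAA1*, the other catalytic subunit, had 28.7 to 41.2 CPM in control, 16.5 to 29.9 CPM on UL and 21.5 to 27.8 CPM on ULU. ULU lay wholly below control (log2(fold change) −0.43, SE 0.14, edgeR adjusted p = 0.0933). Ranges did not overlap in ULU vs control for 3.39% of all genes tested. For UL vs control *PRKAA1* had −0.54 (SE 0.13), not called by edgeR (adjusted p = 0.152) and called by DESeq2 on the libraries of these diets (adjusted p = 0.0332). *PRKAB2*, the beta 2 subunit of muscle AMPK, was at 0.47 in ULU vs control (SE 0.14, adjusted p = 0.0805), with 527, 509.8, 486, 786 and 613 CPM in the ULU piglets. The highest of these was ULU replicate 43, the library with the lowest TMM factor, which was highest of all 17 also for *AKT2*, *IRS1*, *PRKAA2*, *HK2*, *RAB10*, *GYS1* and *THRA*.

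Among 8 transcription factors and cofactors that act on *SLC2A4*, 0 passed in edgeR, 4 had an unadjusted p under 0.05 in ULU vs control, and DESeq2 on the libraries of these diets called 1, *THRA*. *THRA*, a thyroid hormone receptor, was at 0.67 in ULU vs control (SE 0.21, edgeR adjusted p = 0.0807). *HDAC4*, a deacetylase that represses MEF2, was at −0.76 in ULU vs control (SE 0.27, edgeR adjusted p = 0.122), on 10 to 39 reads per library. In ULU vs UL *HDAC4* was at −1.04 (SE 0.27, edgeR adjusted p = 0.180). DESeq2 on the control and ULU libraries gave it no adjusted p-value. *MEF2C* was at 0.40 in UL vs control (SE 0.18, edgeR adjusted p = 0.437).

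**Figure D4:**
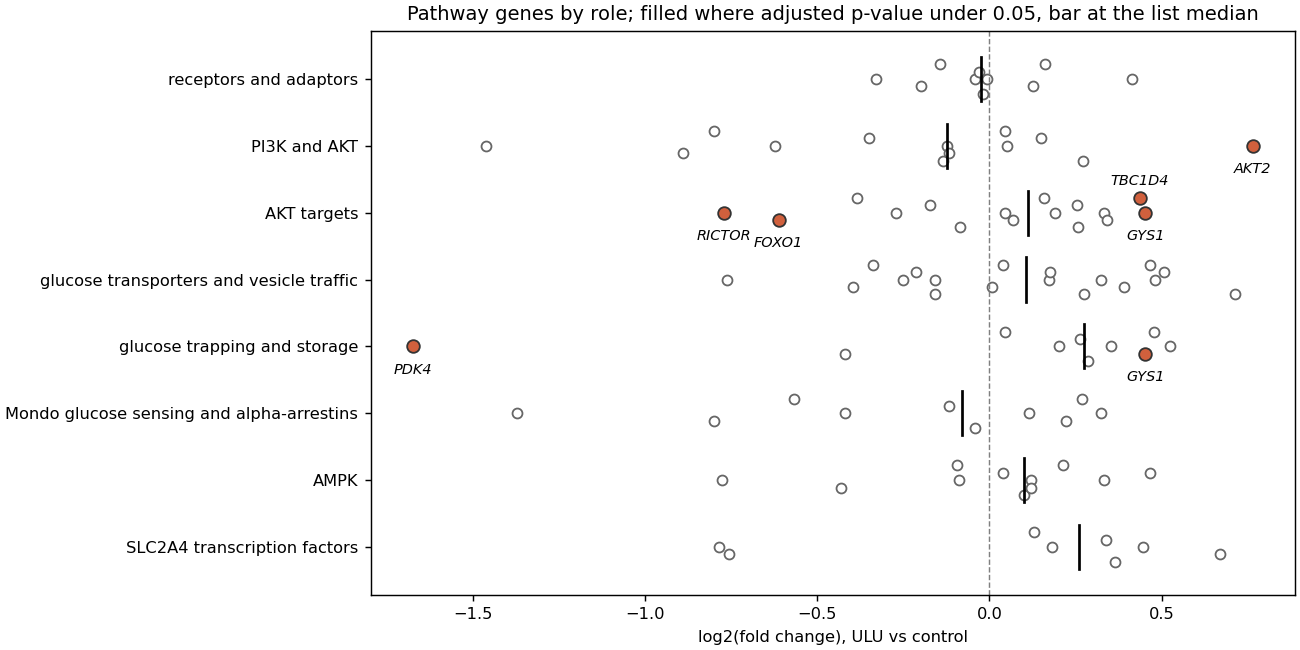
Log2(fold change) in ULU vs control (horizontal axis) of the tested pathway genes, in 1 row per role. The row of AKT targets also holds mTOR complex genes, *RICTOR* among them. Each point is a gene, filled and named where the edgeR adjusted p-value was under 0.05, and the black bar is the median of the row. *PDK4*, *RICTOR* and *FOXO1* lie to the left of 0 and *AKT2*, *TBC1D4* and *GYS1* to the right, with *GYS1* shown under both roles it was listed in.

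Finally, the 10 genes were compared with each other across piglets, after the mean of each diet had been subtracted from the log2 CPM. None of the 45 pairs was correlated at a permutation p adjusted over the pairs under 0.05, and 4 had an unadjusted p under 0.05. For *TXNIP* and *ARRDC4*, the arrestins that share the Mondo regulators, Pearson's r was 0.569 and Spearman's rho 0.593 (17 libraries, permutation p = 0.0186 and 0.0125, adjusted p = 0.538 and 0.362). Without the 2 libraries farthest from the median of *TXNIP*, r was 0.450. Over the 17 libraries, *TBC1D4* had negative coefficients with *TXNIP* (r = −0.591, rho = −0.569, permutation p = 0.0409 and 0.0305) and with *ARRDC4* (r = −0.472, rho = −0.525, permutation p = 0.0479 and 0.0303). These r were −0.354 and −0.236 without the 2 farthest libraries. *HK2* and *IRS1* had r = 0.479 and rho = 0.522 (permutation p = 0.0428 and 0.0322), and 0.348 without the 2 farthest. The adjusted p-values of these 3 pairs were 0.538 for r and 0.362 for rho. *AKT2* and *TBC1D4*, the genes that passed in ULU vs control, had r = −0.11. Within single diets n was 5 or 6, and no test was run there. In control, UL and ULU, r was −0.39, −0.07 and −0.93 for *TBC1D4* with *TXNIP*. For *TBC1D4* with *ARRDC4* it was −0.79, 0.30 and −0.93, so the sign was not shared by the diets. It was 0.53, 0.38 and 0.92 for *TXNIP* with *ARRDC4* and 0.47, 0.49 and 0.73 for *HK2* with *IRS1*.

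**Figure D5:**
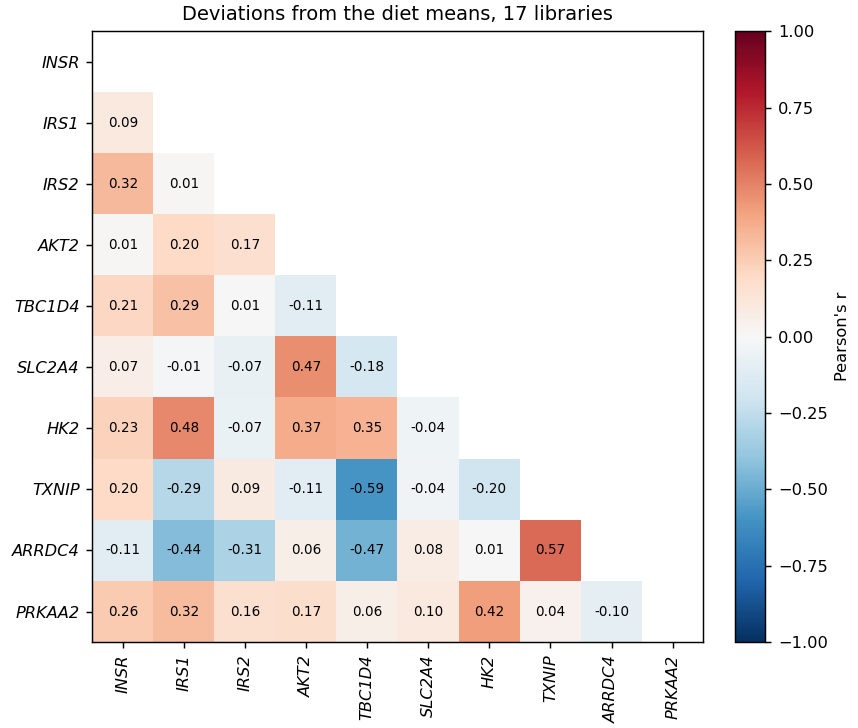
Pearson's r of each of the 45 pairs of the 10 genes (colour and printed value), on log2 CPM of the 17 libraries minus the mean of each diet. The strongest values are −0.59 for *TBC1D4* with *TXNIP* and 0.57 for *TXNIP* with *ARRDC4*, and none passes the adjustment over the pairs.

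Among the tested genes with a symbol, the gene whose deviations were most like those of each of the 10 was found by the same r. Genes without a symbol were not searched, and the result is a description over 17 libraries that share their scaling. For *SLC2A4* it was *NEURL1* (r = 0.909), for *INSR* *FOXN3* (0.922), for *AKT2* *DPF3* (0.873), for *PRKAA2* *MED14* (0.871) and for *IRS2* *SMO* (0.863). For *TXNIP* it was *STX17* (0.849), for *TBC1D4* *GPR137C* (0.844), for *ARRDC4* *ANKRD16* (0.838), for *HK2* *HHATL* (0.820) and for *IRS1* *CAT* (0.788). Each r is the highest of a search over many genes. The next gene was nearly level for *TXNIP* (*THAP6*, 0.848) and less so for *INSR* (*VAMP2*, 0.888). None of the 10 had another of the 10 as its most alike gene. With so few of them among the genes searched, this does not show whether the 10 vary together.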

How the data were processed

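RNA of the longissimus muscle (longissimus dorsi per the labels) was sequenced as single reads of 75 nt. The methods plan 6 piglets per diet, and 5 ULU libraries were analysed here. The authors used fastp for trimming, HISAT2 for alignment and featureCounts for counting, and the deposited values are unnormalized counts of reads per gene. The header names featureCounts 2.0.1, Ensembl annotation 104 and Sscrofa11.1, and no strand option. A deposited column with the authors' mean count per gene only served to check the columns. Symbols were matched by Ensembl identifier (15029 matched). *SLC2A3*, *TXN* and *TPM3* were instead paired by position with RefSeq genes of Sscrofa11.1, a rule revised after marker levels had been seen.

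Counts of all 17 libraries were fitted with edgeR 4.0.16 in R 4.3.3 (TMM factors, filterByExpr, quasi-likelihood F test), and p-values were Benjamini-Hochberg adjusted over 14203 genes. SE is the absolute log2(fold change) divided by the square root of F. Totals of 16137365 to 26546810 counts set the precision, and the floor of 3 counts covers counting error only. DESeq2 1.42.0, other scalings, filters, covariates and leaving out each library were alternatives. Correlations used 100000 permutations within diets (scipy 1.17.1, pandas 2.3.3), and library measures two-sided exact permutation tests. The test code was run on counts simulated from its own fitted means and dispersions, with no shift of composition between diets. That run therefore does not bear on the calls lost with a covariate. Each library is 1 piglet, labelled as a separate sample.

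The genes and lists were chosen with earlier results of these data known. Named are the 10 genes, each list gene called in any comparison, per list the 2 smallest p in ULU vs control and the smallest in UL vs control, and the gene with a symbol most alike each of the 10. The values of 1 gene that this rule names are not reported here. Sequences and promoter motifs were not analysed here.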

Additional observations from a re-analysis of the deposited data

Results flagged for a closer look

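Among 75 groups (25 named genes in 3 diets), 10 held a piglet whose gap to its nearest neighbour was large for the range of its diet by Dixon's criterion, which chance alone flags in about 1 in 20 groups. For the 10 genes, these were *TBC1D4* in UL replicate 28 at 62.8 CPM (next 54.2 CPM), *TXNIP* in control replicate 23 at 767 CPM (next 457 CPM) and *PRKAA2* in ULU replicate 43 at 515 CPM (next 358 CPM). ULU replicate 43 was also apart for *RAB10*, at 529 CPM. *FOXO1* was high in UL replicate 30, at 12.8 CPM. *PTPN1* was low in ULU replicate 44, at 13.6 CPM. The others were *STX4* in UL replicate 31 at 12.8 CPM, *ARRDC2* in control replicate 25 at 22.9 CPM, *PRKAB2* in UL replicate 27 at 555 CPM and *MEF2C* in ULU replicate 42 at 473 CPM.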

How the results depend on the processing

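No paired analysis was possible because each replicate number in the labels belongs to 1 piglet of 1 diet. Of the 10 genes, the 2 calls in ULU vs control became 1 with edgeR on the libraries of both diets or with no filter on low counts, 0 with the mitochondrial share or the slow fibre sum as a covariate, and 1 or 2 without 1 library. In ULU vs UL the 0 calls became 2 (*AKT2* and *TBC1D4*) with DESeq2 on the libraries of these diets or on all 17. Only 9 and 6 of the 10 genes had an adjusted p-value there, and 3.84% and 8.92% of all genes with one were called. In UL vs control the calls stayed at 0 in all alternatives run. The cause of these differences was not tested.

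Over all genes, DESeq2 on the libraries compared called 148 genes in UL vs control, 826 in ULU vs control and 231 in ULU vs UL, and DESeq2 on all 17 libraries 153, 1067 and 248, against 0, 423 and 5 in edgeR. In edgeR, the libraries of both diets alone gave 111 genes in ULU vs control and 1 in ULU vs UL, and no filter on low counts gave 228 and 8. The mitochondrial share as a covariate gave 2, 8 and 2 genes, and the slow fibre sum 11 in ULU vs control. Without 1 library the numbers ranged from 0 to 16, from 147 to 799 and from 1 to 5, with 16 and 799 both without control replicate 25. Leaving out the mitochondrial chromosome, an alternative chosen after seeing the data, gave 0, 422 and 5. The number of correlated pairs ranged from 0 to 1, the pair being *TBC1D4* and *ARRDC4* without UL replicate 28 (r = −0.70, permutation test, adjusted p = 0.0135).

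Log2(fold changes) that changed sign were small or uncalled. With the mitochondrial share as a covariate, those in UL vs control were *HK2* at −0.10, *TBC1D4* at 0.044, *TXNIP* at −0.19, *PRKAA2* at 0.10 and *RAB10* at −0.0015. With the slow fibre sum they were *TXNIP* at −0.18, *PRKAA2* at 0.10, *RAB10* at −0.040 and *PRKAB2* at 0.035. *TXNIP* in ULU vs control was at −0.68 and −0.51 with these covariates. In ULU vs UL, *SLC2A4* was at 0.0054 (DESeq2 on the libraries of these diets), 0.00031 (RLE size factors), 0.0028 (DESeq2 on all libraries), 0.0054 (no filter), 0.014 (mitochondrial share) and 0.0017 (no mitochondrial chromosome), *PIK3R2* at −0.019 (upper-quartile factors) and −0.078 (mitochondrial share), and *ARRDC2* at 0.23 (mitochondrial share). Without 1 library, UL vs control ranged from −0.10 to 0.25 for *HK2*, −0.050 to 0.025 for *PRKAA2*, −0.013 to 0.087 for *RAB10* and −0.13 to 0.030 for *PRKAB2*. ULU vs control ranged from −0.29 to 0.47 for *HK2*, −0.17 to 0.094 for *INSR* and −0.33 to 0.33 for *TXNIP*. ULU vs UL ranged from −0.083 to 0.063 for *SLC2A4*, −0.37 to 0.38 for *HK2*, −0.075 to 0.34 for *IRS2*, −0.60 to 0.032 for *TXNIP*, −0.17 to 0.030 for *ARRDC4*, −0.063 to 0.012 for *PTPN1*, −0.048 to 0.085 for *PIK3R2*, −0.24 to 0.054 for *ARRDC3* and −0.44 to 0.0036 for *ARRDC2*.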
